A study of Homo sapiens with 6 samples.

Results

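Galanin, adrenomedullin, the 2 stanniocalcins and parathyroid hormone-like hormone are secreted peptide or glycoprotein hormones, and the level of their mRNA was followed in OVCA432 cells with and without microfibrillar associated protein 5 (MFAP5). The 5 genes (GAL, ADM, STC1, STC2 and PTHLH) were selected on results of these same arrays, so their differences between the groups are described here and not tested. Every probe set that the platform annotation assigns to 1 of these symbols alone was taken. This gave 8 probe sets for 4 of the 5 genes, out of 19775 genes with a named probe set on the array. PTHLH, which encodes parathyroid hormone-related protein, the hormone behind many cases of high blood calcium in cancer, had no probe set under its symbol in the annotation used and was not analysed here.

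OVCA432 is an established cell line that the labels describe as high grade serous ovarian cancer. In the MFAP5 group, cells received recombinant human MFAP5, a glycoprotein of extracellular microfibrils, at 200 ng/mL in serum-free medium. In the control group they received the same amount of solvent in that medium. All cells of both groups had been kept without serum for 24 h beforehand, and RNA was taken after 48 h from 3 independently prepared samples per group, each put on 1 Affymetrix U133 Plus 2.0 array. A single cell line and a single dose and time were used.

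Peptide hormones are made as longer precursors that are cut by proprotein convertases and trimmed by carboxypeptidases, and some are then amidated at their end. Galanin is a neuropeptide that acts through the G protein-coupled receptors GALR1, GALR2 and GALR3, and it is also made by some tumour cells. Adrenomedullin is a vasodilator that binds the receptor CALCRL when this is paired with RAMP2 or RAMP3, and its gene is a well-known target of hypoxia-inducible factors. The stanniocalcins are glycoproteins named after a gland of bony fish, where they control calcium, and in mammals they inhibit the protease PAPPA, which frees insulin-like growth factors by cutting their binding proteins. STC2 is also known to respond to endoplasmic reticulum stress through ATF4.

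The deposited values were MAS5 signals on a linear scale. The brightest of the 27 control probe sets for Bacillus RNA, which these cells do not make, had a signal of 26.4 to 38.7 on the MFAP5 arrays and 29.6 to 55.9 on the control arrays. It serves below as the level above which a probe set is taken as measured on an array. All 15 markers of serous ovarian epithelium lay above that level on all 6 arrays, against 2 of 10 fibroblast, none of 8 endothelial and none of 7 leukocyte markers. Of 5 neuroendocrine markers, a cell type that secretes such peptides, only CHGA lay above it on all arrays, and the summed signal of these markers was 129 to 178 on MFAP5 arrays and 147 to 179.9 on control arrays. The 8 endothelial markers, of interest because endothelium makes adrenomedullin and endothelin, had a summed signal of 283 to 342 on MFAP5 arrays and 192 to 279.7 on control arrays. Their mean signal was higher with MFAP5 for ESAM, VWF, CDH5, KDR and TIE1 and lower for PECAM1, TEK and CLDN5. The part of these markers in the ADM and EDN1 values was not tested. For the 10 fibroblast markers the summed signal was 371 to 431 on MFAP5 arrays and 297 to 377.5 on control arrays. Between 31963 and 36073 probe sets were above the Bacillus level on MFAP5 arrays, and between 27209 and 34203 on control arrays. The log2 ratio of 3' to 5' signal, a measure of RNA integrity, was -0.13 to -0.06 on MFAP5 arrays and -0.20 to -0.06 on control arrays for GAPDH. For ACTB it was 0.21 to 0.34 and 0.23 to 0.34 on MFAP5 and control arrays. Less RNA per cell and fewer cells that express a gene cannot be told apart in such samples.

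Of the 4 genes measured, ADM, STC1 and STC2 had higher mRNA with MFAP5 and GAL lower. On the brightest probe set of each gene these differences were 2.68-fold to 3.34-fold, and the groups did not overlap on any of them. Of the 8 probe sets, 5 passed a filter on low values (a mean log2 signal over the 6 arrays at or above that of a signal of 53.7, the median of the array). Among these 5, 4 were higher on all MFAP5 arrays than on all control arrays, and 1 was lower on all. Over the 27307 probe sets past the filter, 21.9% lay higher without overlap and 19.1% lower. A difference of 2-fold or more upward was seen for 3 of the 5, and downward for 1, where 2.78% and 0.721% of all probe sets past the filter reached it. The genes were chosen on this comparison, so these shares are given as background only.

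**Figure D1:**
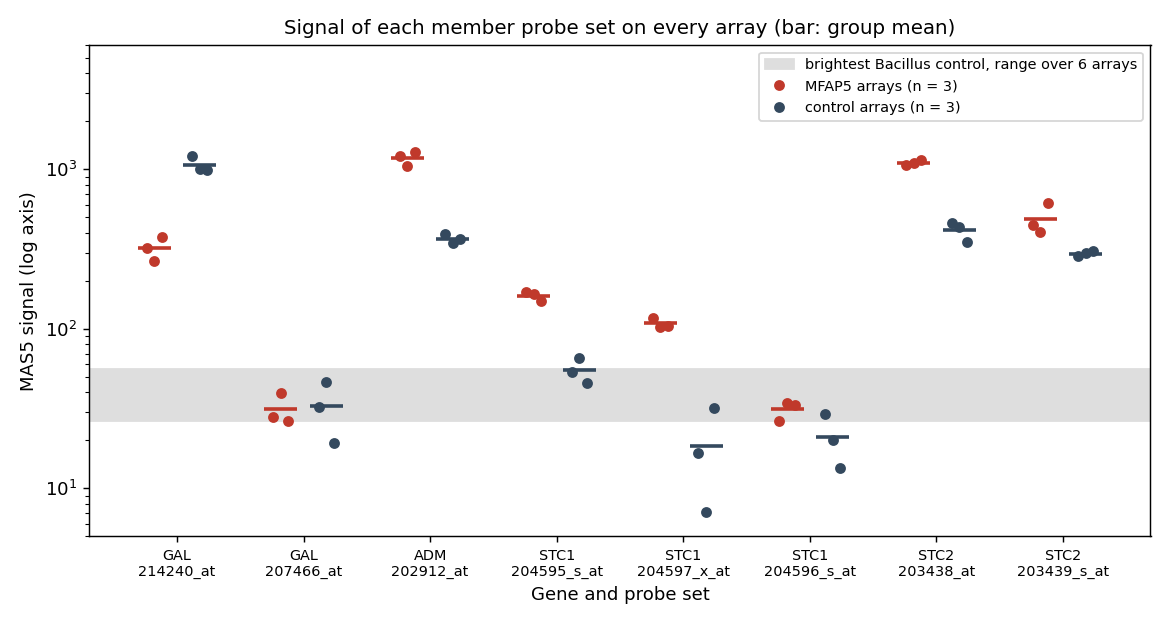
MAS5 signal (log axis) of the 8 probe sets of GAL, ADM, STC1 and STC2 on each of the 3 MFAP5 and 3 control arrays, with a bar at each group mean and a grey band from 26.4 to 55.9 for the brightest Bacillus control over the arrays. GAL 214240_at sits lower on MFAP5 arrays, ADM, both STC2 probe sets and STC1 204595_s_at and 204597_x_at sit higher, and the other GAL and STC1 probe sets lie within or below the band.

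Galanin mRNA was lower with MFAP5. Its probe set 214240_at had signals of 323, 265 and 375 on the MFAP5 arrays, against 1206, 1004 and 991 on the control arrays. The highest MFAP5 value lay 2.64-fold below the lowest control value, so the groups were well apart. The mean was 321 ± 54.8 with MFAP5 and 1067 ± 120.3 in control cells (SD, n = 3 each), a log2 difference of -1.74 ± 0.14 (SE from the limma fit) or 3.34-fold lower. The second GAL probe set, 207466_at, showed no such difference: it had signals of 28.1, 39.8 and 26.6 with MFAP5 and 32.4, 46.4 and 19.2 in control cells. It was above the brightest Bacillus control on 2 of 3 MFAP5 arrays and 1 of 3 control arrays and overlapped between the groups, so it is too dim to be set against the first. The GAL difference therefore rests on 1 probe set, and averaging both on the log2 scale gives -0.86.

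Adrenomedullin mRNA was higher with MFAP5. ADM, measured by the probe set 202912_at alone, had signals of 1215, 1054 and 1282 on the MFAP5 arrays, against 391.5, 345 and 366 on the control arrays. The coefficient of variation was 9.87% with MFAP5 and 6.30% in control cells, and the lowest MFAP5 value was 2.69 times the highest control value. The mean was 1184 ± 116.9 with MFAP5 and 368 ± 23.1 in control cells (SD, n = 3 each), a log2 difference of 1.68 ± 0.11 (SE), or 3.21-fold.

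STC2 mRNA was higher with MFAP5 on both of its probe sets, by different amounts. The brighter one, 203438_at, had signals of 1063, 1101 and 1147 with MFAP5, against 458, 436 and 349 in control cells. These MFAP5 values were close together, with a mean of 1104 ± 42.1, against 414 ± 57.6 in control cells (SD, n = 3 each). The log2 difference was 1.42 ± 0.12 (SE), or 2.68-fold. The other, 203439_s_at, had signals of 451, 404 and 615 with MFAP5 and 285, 298 and 307 in control cells, a log2 difference of 0.70 ± 0.16 (SE), or 1.63-fold. MFAP5 replicate 3 stood above the other MFAP5 arrays there, but the groups did not overlap on either probe set. The mean of both probe sets gave a log2 difference of 1.06.

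STC1 was dim in control cells and above background with MFAP5. On 204595_s_at its signals were 169.5, 165 and 149.9 with MFAP5, against 53.7, 65.3 and 45.7 in control cells, with no overlap. The control value of replicate 1 lay below the brightest Bacillus control of its own array and the other control values above theirs. The log2 difference was 1.57 ± 0.22 (SE, n = 3 each), or 2.97-fold, and with 50 added to each signal, which damps the differences of dim probe sets, it was 1.01. The probe set 204597_x_at, of a kind whose probes can match other transcripts as well, did not pass the filter. It had signals of 118, 103 and 104 with MFAP5, against 16.7, 7.09 and 31.8 in control cells, where no array was above the brightest Bacillus control. Set against that control level it was at least 2.80-fold higher with MFAP5. The third, 204596_s_at, was not measurable: its signals of 26.3, 34.2 and 33.1 with MFAP5 and 29.3, 20.2 and 13.5 in control cells overlapped, and only 1 of the 6 lay above the brightest Bacillus control.

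The spread within a group and the effect of the processing differed among these genes. Under 12 alternatives of scaling, offset, probe set choice and left-out arrays, the log2 difference of ADM ranged from 1.55 to 1.76, that of STC2 from 1.06 to 1.5, that of STC1 from 1.01 to 1.70 and that of GAL from -1.88 to -0.86. None changed sign, although the replicate block, 1 of the 12, cannot move a difference in this balanced design. With 3 arrays per group an exact permutation test could not go below p = 0.1, and none was made for these genes.

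**Figure D2:**
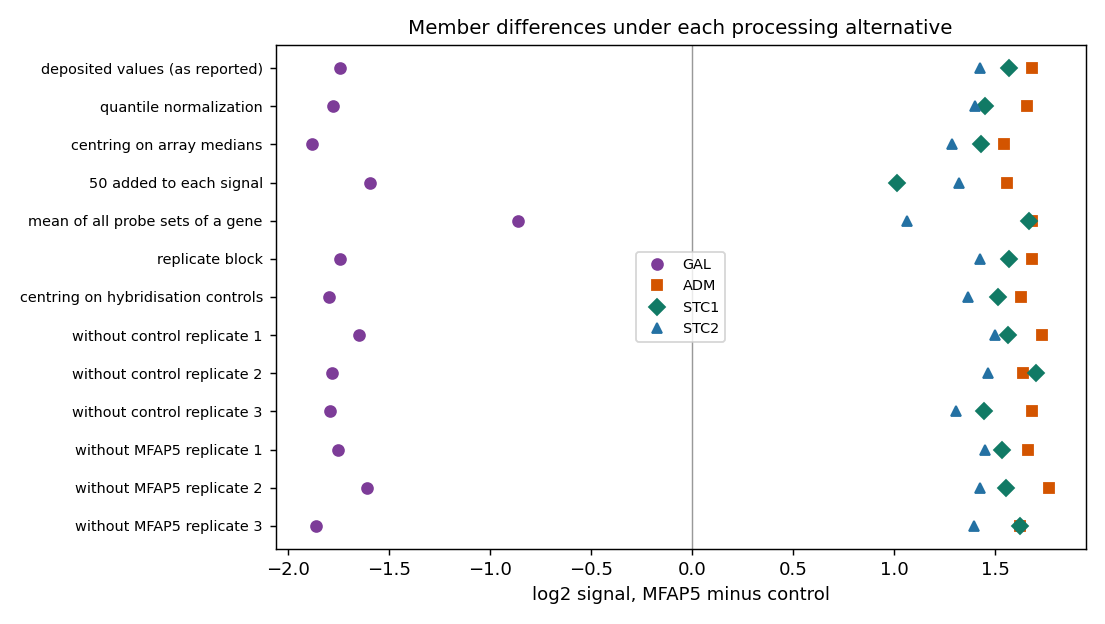
Log2 difference in signal, MFAP5 minus control (horizontal axis), of GAL, ADM, STC1 and STC2 as deposited and under each of 12 alternatives (rows), on the brightest probe set except in the row for the mean of all probe sets. ADM, STC1 and STC2 stay between 1.01 and 1.76 and GAL between -1.88 and -0.86.

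The sequences upstream of ADM and STC2 are shown because these were the measured hormone genes with a window in the promoter set used. Both genes were higher with MFAP5 and both have a place in hypoxia or stress responses. Each window runs from 250 bases before the start of the gene to 50 bases into it (RefSeq, GRCh38.p14), on the strand of the gene and 5' to 3'. For ADM it is chr11:10304823-10305122 on the plus strand, and for STC2 chr5:173328365-173328664 on the minus strand. Capitals mark matches, on either strand, to the core of the hypoxia response element (ACGTG or GCGTG), the cAMP response element (TGACGTCA), the C/EBP-ATF element bound by ATF4 (TGATGNAAN) or the TATA box (TATAAA). GAL and STC1 had no window in the promoter set and are not shown.
ADM: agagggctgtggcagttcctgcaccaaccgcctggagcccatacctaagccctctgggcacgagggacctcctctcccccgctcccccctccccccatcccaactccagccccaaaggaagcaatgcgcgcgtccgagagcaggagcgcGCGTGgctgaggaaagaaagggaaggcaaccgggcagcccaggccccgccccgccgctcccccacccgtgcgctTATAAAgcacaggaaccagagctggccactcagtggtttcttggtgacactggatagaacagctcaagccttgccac
STC2: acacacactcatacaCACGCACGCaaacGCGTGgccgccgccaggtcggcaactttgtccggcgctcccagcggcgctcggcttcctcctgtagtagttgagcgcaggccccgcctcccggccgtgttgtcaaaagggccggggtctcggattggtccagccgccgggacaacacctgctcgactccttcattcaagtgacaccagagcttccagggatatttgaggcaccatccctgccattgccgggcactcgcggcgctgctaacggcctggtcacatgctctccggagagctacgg

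The ADM window held 1 match to GCGTG, at position -101 from the gene start, and 1 to TATAAA, at -27. The STC2 window held 3 matches to GCGTG, of which those at -235 and -231 lie on the opposite strand and overlap by 1 base, and the third lies at -222. Neither window held ACGTG, TGACGTCA or TGATGNAAN. Of 35116 promoter windows of the same length, 36.5% held GCGTG, 21.4% ACGTG, 48.4% at least 1 of these, 11.5% TATAAA, 3.61% TGATGNAAN and 1.85% TGACGTCA. A match is a run of letters and does not show that a factor binds, and a missing match says only that these letters are not in the window.

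The genes whose signal followed each hormone most closely over the 6 arrays were found by Pearson correlation on the log2 scale. All arrays share the 2 groups, so a gene with a steady difference between the groups correlates highly with any other: 191 of 12215 genes reached 0.98 with GAL, 407 with ADM, 385 with STC1 and 375 with STC2. Closest to GAL were RAB8B, a small GTPase of vesicle traffic (r = 0.9996), OGFOD2 (0.9989) and BRMS1 (0.9974), which were 1.34-fold, 1.20-fold and 1.32-fold lower with MFAP5. Closest to ADM were ATXN1 (0.9995), the mitochondrial adenylate kinase AK4 (0.9989) and the orphan receptor GPRC5A (0.9988), which were 1.86-fold, 1.45-fold and 2.22-fold higher. For STC1 they were ASPHD2 (0.9991), IGSF11 (0.9986) and KLRG2 (0.9984), and all 3 were higher with MFAP5, by 1.84-fold to 2.62-fold. For STC2 they were WFS1, a membrane protein of the endoplasmic reticulum (0.9994), TP53I11 (0.9993) and PDIA6, a protein disulphide isomerase (0.9991), which were 1.38-fold to 1.86-fold higher.

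Of 9 genes for receptors of these hormones and for the RAMP proteins that pair with CALCRL, 6 did not pass the filter. CALCRL, the shared receptor of adrenomedullin and calcitonin gene-related peptide, was not above the brightest Bacillus control on any of the 6 arrays, and neither were RAMP2, RAMP3 and GALR1. GALR2 and GALR3 were above it on all 3 MFAP5 and 2 of 3 control arrays but did not pass the filter. Of the 3 genes of this list that were tested, 2 rose and none fell (limma, adjusted p below 0.05). Of all 12216 genes tested, 14.6% were called higher and 15.3% lower. This list and those below were chosen with earlier results of these data known, so such shares are background only. RAMP1, which turns CALCRL into the receptor for calcitonin gene-related peptide, had signals of 343, 430 and 452 with MFAP5, against 189.8, 234 and 145 in control cells (2.18-fold, limma adjusted p = 0.00208). ACKR3, a scavenging receptor for CXCL12 that also takes up adrenomedullin, had 898, 959 and 951 with MFAP5 and 538, 535 and 657 in control cells (1.63-fold, limma adjusted p = 0.000952). The groups did not overlap for RAMP1 or ACKR3, but the ACKR3 call was lost on the average over its probe sets, dim ones included (adjusted p = 0.511). PTH1R, the receptor of parathyroid hormone and of the PTHLH product, had 92.3 ± 9.72 with MFAP5 and 73.5 ± 14.2 in control cells (SD, n = 3 each; limma adjusted p = 0.333).

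Of the 5 genes of the proteases that stanniocalcins inhibit and of binding proteins for insulin-like growth factors, 3 passed the filter and none was called by limma. At an unadjusted p below 0.05, limma called 1 of them, IGFBP2. IGFBP2, an abundant transcript here, had signals of 26285, 26194 and 26396 with MFAP5, against 25023, 23726 and 22377 in control cells (limma adjusted p = 0.0967). Its log2 difference of 0.15 became 0.01 with quantile normalization (limma adjusted p = 0.842) and on array medians (limma adjusted p = 0.89). IGFBP5 had a log2 difference of 0.29 ± 0.45 (SE, limma adjusted p = 0.683), and it overlapped between the groups. PAPPA itself did not pass the filter.

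Of 11 tested genes that process or degrade peptide precursors, 5 rose, none fell and 6 were not called. The list held 16 genes, of which PCSK1, PCSK2 and CPZ had no named probe set and 2 did not pass the filter. Over all genes tested, 14.6% were called higher and 15.3% lower. The median log2 difference was 0.46 for this list, beside -0.01 over all genes tested. Because the list was chosen with earlier results of these data known, these shares and medians are background only. SCG5, the chaperone 7B2 of the convertase PCSK2, had signals of 268, 261 and 240.3 with MFAP5, against 57.9, 56.6 and 72.3 in control cells (4.14-fold, limma adjusted p = 5.14e-05). QPCT, which closes the first residue of some peptides to pyroglutamate, had 127, 139 and 108 with MFAP5 and 46.5, 49.7 and 39.8 in control cells (2.74-fold, adjusted p = 0.00168). All 3 control values of QPCT were under the filter's signal of 53.7 and 1 of them was not above its Bacillus level, so QPCT was tested only because its MFAP5 values were high, and its place among the 5 rests on that; the call was also made without the filter. Every MFAP5 value of SCG5 and QPCT was more than 2-fold above every control value.

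PAM, the enzyme that amidates adrenomedullin and many other peptides, had signals of 5001, 4929 and 5246 with MFAP5, against 2945, 3266 and 3306 in control cells (1.60-fold, limma adjusted p = 9.08e-05). PAM had 2 further tested probe sets, and both rose. CPD, a carboxypeptidase of the secretory pathway, rose 1.65-fold (5633 ± 213 with MFAP5 and 3411 ± 219.6 in control cells, limma adjusted p = 6.16e-05). Only 1 of 3 further tested probe sets of CPD was called. The average over every CPD probe set, whether or not it passed the filter, was not called (limma adjusted p = 0.977). PCSK1N, an inhibitor of the convertase PCSK1, rose 1.42-fold (adjusted p = 0.0212), and its call was lost without control replicate 2 (0.0622), MFAP5 replicate 1 (0.067) or MFAP5 replicate 3 (0.0671), with array medians as the centre (0.0667) and on the hybridisation controls (0.119). The convertases FURIN, PCSK4, PCSK5 and PCSK7 and the carboxypeptidase CPE were not called, with log2 differences from -0.08 to 0.29.

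**Figure D3:**
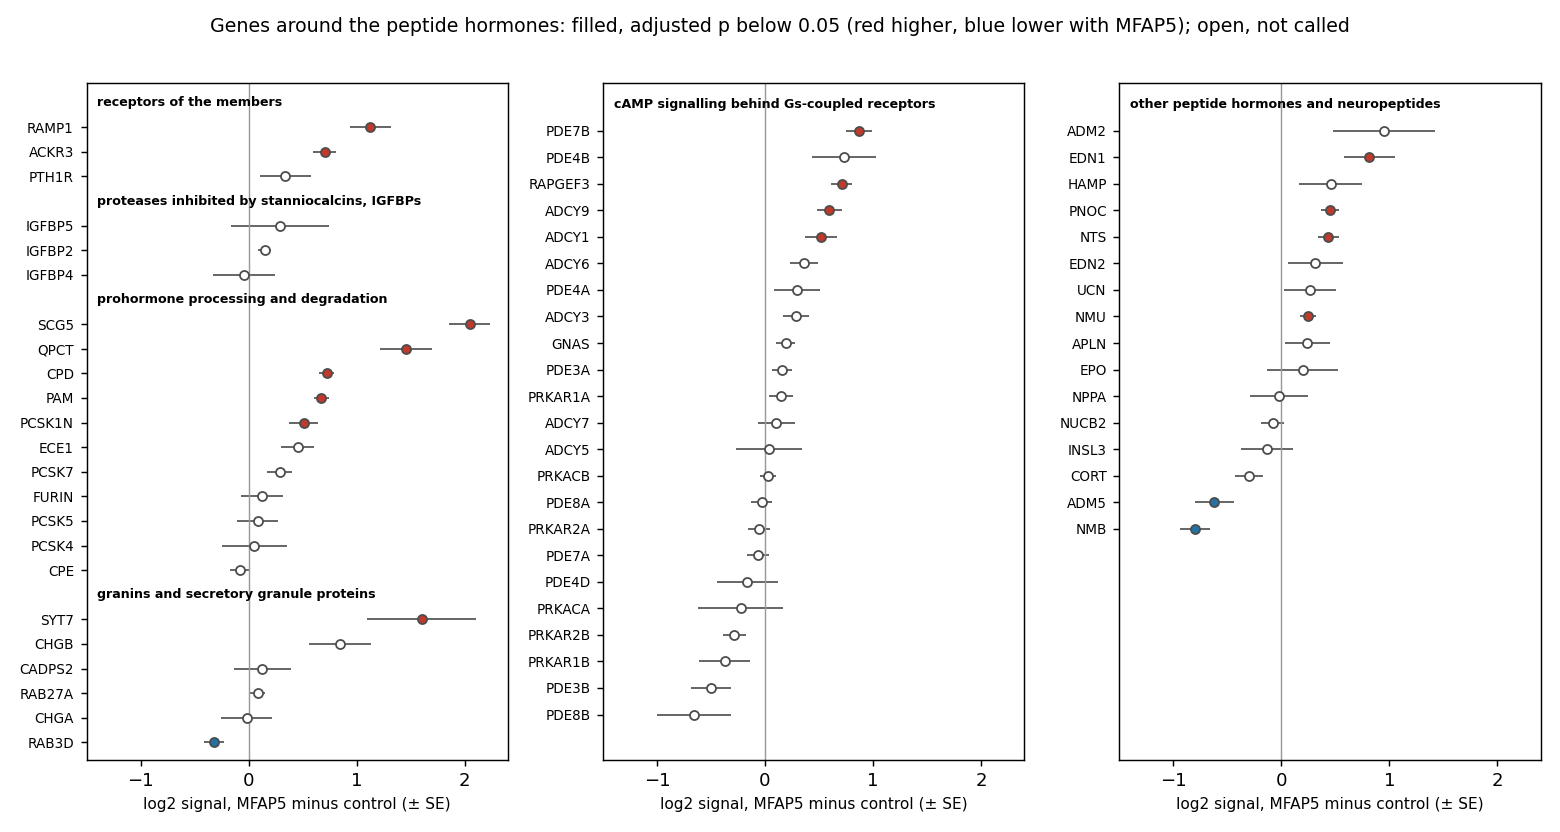
Log2 difference in signal, MFAP5 minus control, with its SE (horizontal axis), for the 62 tested genes of 6 lists around the hormones, grouped by list (rows). Filled points passed the limma test (16 higher, 3 lower) and open points did not (43), and SCG5 has the largest difference at 2.05. Over all 12216 genes tested, 14.6% were called higher and 15.3% lower. The lists were chosen with earlier results of these data known, so the counts are background only.

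Of the 6 tested genes of secretory granules, 1 rose, 1 fell and 4 were not called, which is near the 14.6% and 15.3% of all genes tested that were called higher and lower. SYT7, a synaptotagmin that senses calcium in exocytosis, had signals of 129.9, 99.8 and 74.9 with MFAP5, against 27.7, 16.3 and 76.7 in control cells (limma adjusted p = 0.0406). Its groups overlapped, because control replicate 3 was as high as the lowest MFAP5 array, and its call was lost without control replicate 1 (0.108), control replicate 2 (0.113) or MFAP5 replicate 3 (0.0535). It was also lost with quantile normalization (0.061), on array medians (0.0541), without the filter (0.0826) and without the intensity trend (0.0949), and only 1 of 3 control arrays was above the Bacillus level. SYT7 passed the filter only through its MFAP5 values, and without control replicate 3, MFAP5 replicate 1 or MFAP5 replicate 2 it did not pass and was not tested, so the 1 granule gene counted as higher is not a firm call. RAB3D, a GTPase of secretory granules, fell by 0.32 on the log2 scale (adjusted p = 0.0319), and this call was lost without control replicate 2 or 3 or any 1 of the MFAP5 arrays (0.057 to 0.0859), on the hybridisation controls (0.122), without the filter (0.0566) or trend (0.0934) and on the average over its probe sets (0.916). The granin CHGA had 112, 128 and 79.1 with MFAP5 and 116, 112 and 91.5 in control cells, with overlapping groups (limma adjusted p = 0.964). RAB27A was not called on its brightest probe set (limma adjusted p = 0.427), but 2 of its 4 other tested probe sets were called higher.

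Of 23 tested genes of cAMP signalling, through which CALCRL and PTH1R act, 4 rose, none fell and 19 were not called, with a median log2 difference of 0.10. The share that rose is near the 14.6% of all genes tested that were called higher, and 15.3% of all were called lower. That none fell depended on the processing. With quantile normalization 1 was called lower, on array medians 2, and without MFAP5 replicate 1 or 3 it was 1 each. The phosphodiesterase PDE7B rose 1.83-fold (688 ± 78.6 with MFAP5, 375 ± 29.6 in control cells; limma adjusted p = 0.000645), and RAPGEF3, the cAMP-binding exchange factor EPAC, rose 1.64-fold (790.1 ± 62.2 and 482 ± 14.4; adjusted p = 0.000633). The adenylyl cyclase ADCY9 rose 1.51-fold (adjusted p = 0.00469), a call lost on the average over its probe sets (0.552). ADCY1 rose 1.43-fold (adjusted p = 0.0288), a call lost without any 1 of the 6 arrays (0.0523 to 0.0878), with quantile normalization (0.063), on array medians (0.0804) and on the hybridisation controls (0.164). GNAS and PDE7A were not called on their brightest probe sets. Of the other tested probe sets, 2 of 9 for GNAS and 2 of 4 for PDE7A were called in the direction opposite to the brightest.

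Of 76 other peptide hormones with a named probe set, 25 were not above the brightest Bacillus control on any array and 16 passed the filter. Of these 16, 4 rose, 2 fell and 10 were not called, beside 14.6% of all genes tested called higher and 15.3% lower. EDN1, the vasoconstrictor endothelin, had signals of 214, 217 and 217 with MFAP5, against 168, 127 and 86.5 in control cells (1.76-fold, limma adjusted p = 0.0284). The call was lost without control replicate 2 or 3 or any 1 of the MFAP5 arrays (0.0562 to 0.0803), or without the intensity trend (0.0564). PNOC, the precursor of nociceptin, rose 1.37-fold (3161 ± 196 with MFAP5, 2319 ± 221 in control cells; adjusted p = 0.00383, and 0.0614 on the hybridisation controls). NTS (neurotensin) rose 1.35-fold (adjusted p = 0.00891), lost on array medians (0.0507) and on the hybridisation controls (0.16). NMU (neuromedin U) rose 1.18-fold (adjusted p = 0.0332), and its call was lost without any 1 of the MFAP5 arrays (0.0727 to 0.116), on array medians (0.233) or hybridisation controls (0.291), and without the filter (0.0654) or trend (0.125).

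NMB, the bombesin-like peptide neuromedin B, fell with MFAP5. It had signals of 269.5, 215 and 234 with MFAP5, against 463, 417 and 369.5 in control cells, with no overlap (1.74-fold lower, limma adjusted p = 0.00273). ADM5, a gene related to adrenomedullin, was 1.54-fold lower (109 ± 12.4 with MFAP5, 167 ± 3.41 in control cells; adjusted p = 0.0295), and its call was lost without any 1 of the control arrays or without MFAP5 replicate 1 or 2 (0.0542 to 0.0834), without the filter (0.0571) and on the hybridisation controls (0.0563). ADM2 (intermedin), a closer relative of ADM that acts on the same receptors, had 91.3 ± 7.61 with MFAP5 and 56.3 ± 36.5 in control cells (SD, n = 3 each; limma adjusted p = 0.173).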

How the data were processed

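The deposited values are MAS5 signals, 1 linear intensity for each probe set and array. The authors' processing is known only as MAS5, per the submitters' processing notes, with no version given. The 2% trimmed mean was the same on all 6 arrays, so a shift common to most transcripts is scaled away. The array medians still differed, with a median log2 signal of 5.91 to 5.94 on MFAP5 arrays and 5.74 to 5.82 on control arrays.

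Of 54613 probe sets that are no controls, 27307 with a mean log2 signal at or above the median were tested (limma 3.58.1, R 4.3.3, eBayes with an intensity trend, Benjamini-Hochberg over all tested, adjusted p below 0.05). The limma fit was also run on simulated data with independent noise for each probe set. Those data held no offset shared by the probe sets of an array, so that run does not bear on the effect of scaling. The probe set with the highest mean stood for a gene. Averages over the probe sets of a gene took all with that symbol alone, whether or not they passed the filter. Symbols came from the platform annotation (41091 probe sets with 1 symbol, 1801 with several, 11721 with none listed), and 41037 were found in RefSeq (GRCh38.p14).

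The hormones and the 6 gene lists were chosen with earlier results of these data known. From each list up to 4 called genes with the largest change were named, or the 2 with the smallest p where none was called, and for each hormone the 3 genes of highest correlation. PCSK1N, NTS and NMU, and genes that were not called, were named after their values were seen. A bound sets the mean log2 signal of one group against the brightest Bacillus control where no array of the other exceeds it. Alternatives changed the scaling, offset, filter, probe set choice, trend, replicate block and the arrays used.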

Additional observations from a re-analysis of the deposited data

How the results depend on the processing

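Directions held for GAL, ADM, STC1 and STC2 under the 12 alternatives tried on them, but many of these could not reverse a direction. The replicate block cannot change a difference in a balanced design. Leaving out an array or adding 50 cannot reverse a difference between groups that do not overlap. The log2 difference moved by more than the replicate spread for ADM with array medians as the centre (1.545) and with 50 added to each signal (1.56), for STC1 with 50 added (1.015), and for GAL (-0.8632) and STC2 (1.062) with the mean of all probe sets of the gene. Leaving out 1 array gave 1.624 to 1.765 for ADM, -1.86 to -1.611 for GAL, 1.446 to 1.703 for STC1 and 1.304 to 1.5 for STC2.

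Of all probe sets, 3679 were called higher and 3209 lower; these were 2302 and 5975 on array medians, where the median log2 difference of the genes tested was -0.15, and 1920 and 2011 on the hybridisation controls, an alternative added after seeing the data. Among the probe sets above the 75% quantile, 2422 were higher. Leaving out 1 array gave 2518 to 3561 higher and 2114 to 3114 lower, the lowest of both without MFAP5 replicate 2. Of the 62 list genes tested, 16 (25.8%) were called higher and 3 (4.84%) lower, beside 14.6% and 15.3% of all genes tested. The lists were chosen with earlier results of these data known, so these shares are background only. Among list genes above the 75% quantile, 9 were higher and 1 lower. On array medians 6 were lower, and 1 was lower without the filter and on the hybridisation controls. Leaving out 1 array gave 11 to 15 higher and 1 to 3 lower, with 1 lower without control replicate 2 or 3 or MFAP5 replicate 2.

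Samples with the same replicate number deviated from their group means with correlations of 0.0887, -0.00715 and 0.166, so the numbers were not taken as pairs. With the number as a replicate block, 4214 probe sets were higher and 3774 lower, and 17 and 3 list genes. Among 296 values of 21 list genes, 240 stayed on their side of the threshold, 56 lost the call and 0 changed sign. Under every alternative that tested them, 9 genes kept their side. These 9 include IGFBP2 and IGFBP5, which were not called and so had no call to lose. They gave 15 and 10 of the 240 values. The genes that kept a call throughout were NMB, PAM, PDE7B, QPCT, RAMP1, RAPGEF3 and SCG5. The number of arrays and the dimness of STC1 and of the receptors limit these values.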

Other observations

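PAPPA, the protease that the stanniocalcins inhibit, was too dim for the test, but its 3 MFAP5 signals (61.4, 44.4 and 59.0) lay above the brightest Bacillus control of their arrays and its 3 control signals (20.3, 25.8 and 29.2) below. Set against that control level it was at least 1.41-fold higher with MFAP5. RETN (resistin), another hormone, had 36.0, 62.1 and 51.8 with MFAP5 and 36.8, 25.3 and 17.3 in control cells. All 3 MFAP5 arrays and none of the control arrays were above their Bacillus level, but the groups overlapped. PAPPA and RETN were singled out after their values were seen. CHGB, a granin, had 75.6 ± 4.38 with MFAP5 and 43.1 ± 12.4 in control cells (SD, n = 3 each; limma adjusted p = 0.0568), and ECE1, an enzyme that degrades or activates peptides, 371 ± 35.5 and 272 ± 41.9 (limma adjusted p = 0.0511).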
